A study of Mus musculus with 6 samples.

Results

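Genes for DNA damage repair were examined in R848-stimulated mouse macrophages pretreated with the solvent DMSO or with a KAT8 inhibitor. KAT8 is a lysine acetyltransferase that modifies histone H4. The set holds 47 named genes, taken by symbol from the 34745 genes of the count table through their Ensembl identifiers. All 47 were found, all had reads in every library, and all passed the filter on low counts, so that they belong to the 13815 genes tested. They were sorted into 7 roles: homologous recombination (14 genes), the Fanconi pathway (7), damage signalling and checkpoint (11), end joining (5), mismatch repair (2), base excision repair (4) and nucleotide excision repair (4). Lig3 was placed with base excision repair, although DNA ligase 3 also serves a form of end joining.

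Cells mend breaks across both DNA strands either by homologous recombination, which copies the sister chromatid and therefore works in S and G2 phase, or by end joining, which needs no template and works throughout the cell cycle. The Fanconi pathway removes cross-links between the strands and feeds into recombination. Mismatch, base excision and nucleotide excision repair replace mispaired, chemically altered and bulky damaged bases, and the ATM and ATR kinases signal damage to the cell cycle machinery. Many recombination and Fanconi genes are transcribed mainly in proliferating cells.

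Macrophages were grown from bone marrow of wild-type (WT) mice in 20 ng/ml M-CSF, the cytokine that drives their differentiation. Strain, age and sex are not in the labels used here. All 6 samples received R848 (100 ng/ml, for 6 h), an agonist of Toll-like receptor 7. Of these, 3 had been pretreated with the solvent DMSO and 3 with the KAT8 inhibitor, whose name, dose and duration the labels do not give. Unstimulated cells were not among the samples used here. Whether the 3 samples of a group are separate mice or cultures is not stated in the labels. The p-values therefore rest on a spread between libraries that may be technical.

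Library totals were 18441352 to 25089320 reads, and the 47 genes together held 0.0594% to 0.0655% of them. A single repair gene had between 8 and 1277 reads in a library. The macrophage genes Lyz2, Cd68 and Adgre1 were abundant, at DMSO means of 8596, 1504 and 917 CPM (reads of a gene per 1000000 reads of the library, after TMM scaling). Of 7 macrophage markers 5 fell, the summed level going from between 11030 and 12610 CPM to between 7099 and 7182 CPM. Most of that sum was Lyz2, at means of 8596 CPM with DMSO and 4190 CPM with the inhibitor. Cd68 and Csf1r did not pass, and Cd68 was higher in every inhibitor library than in any DMSO library. Stromal genes were abundant too: 7 of 9 markers fell with the inhibitor, and their summed level was 4520 to 5328 CPM with DMSO and 2019 to 2153 CPM with the inhibitor. Of 10 markers of myeloid precursors and neutrophils, the 3 that could be tested (Cd34, Kit and Camp) fell, the summed level going from between 50.6 and 53.2 CPM to between 12.9 and 15.7 CPM, almost all of it Cd34 (means of 49.3 and 13.1 CPM), which other cell types also express. Elane, Ctsg, Ly6g and Ngp were at 0 in every library, and Mpo, Prtn3 and Ltf had at most 1 read in a DMSO library and at most 8 in an inhibitor library, Ltf being higher in all 3 of the latter. Col1a2, the most abundant stromal gene, went from a mean of 1701 to 669 CPM. Summed over each list, markers of B, T and NK, erythroid and mast cells were at 3.2 CPM or less in every library, and those of dendritic cells went from between 18.2 and 20.4 CPM to between 10.8 and 11.5 CPM. The part of other cell types in the results below was not tested. In bulk samples such as these, fewer cells of a type and less RNA per cell cannot be told apart.

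Promoters are shown for 4 genes that the results turn on: Bard1, which had the largest fall, its partner Brca1, Brca2, which was not called, and Xpa, which rose. The sequences are from RefSeq (GRCm38.p6), cover the 250 bases before the start site or the part of them that lies in no annotated exon, and run 5′ to 3′ on the strand of the gene. Capitals mark matches on either strand to 3 motifs known from cell cycle genes: the E2F words TTTCCCGC, TTTCGCGC, TTTGCCGC and TTTGGCGC, the CHR words TTTGAA and TTCGAA, and the CCAAT box (CCAAT). Words of different motifs can overlap only at their ends, and none do in these 4 sequences. Bard1 (chr1:71103147-71103222, minus strand) holds a CHR word and, farther along, an E2F word. Brca1 (chr11:101551956-101552148, minus strand) holds a CCAAT box. Brca2 (chr5:150522371-150522620, plus strand) holds an E2F word on the other strand. Xpa (chr4:46196312-46196561, minus strand) holds a CCAAT box.
Bard1: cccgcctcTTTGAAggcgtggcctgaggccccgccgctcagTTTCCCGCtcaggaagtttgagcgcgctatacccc
Brca1: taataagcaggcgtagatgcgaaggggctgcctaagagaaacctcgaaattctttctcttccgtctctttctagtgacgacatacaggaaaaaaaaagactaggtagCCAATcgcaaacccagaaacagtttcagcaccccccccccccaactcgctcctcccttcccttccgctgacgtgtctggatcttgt
Brca2: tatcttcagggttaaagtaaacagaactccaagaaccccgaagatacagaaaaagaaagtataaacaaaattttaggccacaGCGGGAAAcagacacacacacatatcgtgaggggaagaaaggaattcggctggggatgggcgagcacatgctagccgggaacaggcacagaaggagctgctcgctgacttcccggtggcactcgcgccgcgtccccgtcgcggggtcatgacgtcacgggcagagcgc
Xpa: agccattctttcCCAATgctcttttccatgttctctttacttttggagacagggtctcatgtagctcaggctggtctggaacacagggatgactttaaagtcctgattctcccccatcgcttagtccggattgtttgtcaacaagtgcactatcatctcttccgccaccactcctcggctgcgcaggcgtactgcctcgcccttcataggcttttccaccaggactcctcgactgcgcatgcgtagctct

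Promoter entries matched 38 of the 47 genes. In the whole window, which also takes in 50 bases after the start, an E2F word was present in 7 of the 38 (18.4%), against 4.72% of the tested genes with an entry and 2.6% of all genes of the promoter table. These 7 were Bard1, Brca2, Chek2, Mdc1, Msh6, Rad51c and Xrcc6, of which 3 were called lower with the inhibitor (Bard1, Mdc1 and Msh6) and 4 were not called. Among all 47 genes 36.2% were called lower, and among all tested genes 26.5%. Whether an E2F word goes with a fall was not tested. CCAAT boxes were present in 22 of the 38 (57.9%), against 42.8% of tested genes, and Xrcc3 held 6 of them. CHR words were present in 5 of the 38 (13.2%), against 16.4% of tested genes. A match describes these letters and is not evidence of binding.

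With the inhibitor, repair genes moved both ways. Genes of homologous recombination and the Fanconi pathway fell in 11 of 21 cases, 3 of 4 nucleotide excision repair genes rose, and the break signalling kinases Atm (0.04 on the log2 scale) and Atr (−0.01, but 0.18 and called with GC and length trends removed) did not pass. In all, 17 of 47 genes fell (36.2%, against 26.5% of all tested genes) and 7 rose (14.9%, against 24.9%), at an adjusted p under 0.05 in edgeR's quasi-likelihood test. The share called in either direction was 51.1%, against a background of 51.5%. Over the 47 genes the median log2 fold change came to −0.24, beside 0.01 over all tested genes. The count of falls was 11 without inhibitor replicate 2, 10 without inhibitor replicate 3 and 11 when libraries were scaled by their totals, a scaling that raised the median of all genes by 0.109 on the log2 scale.

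The classes were not tested against each other, and their counts stand side by side. Of the 21 recombination and Fanconi genes, 11 fell and 1 rose (52.4% and 4.76%, median −0.42). Of the 11 signalling genes, 2 fell and 2 rose, with a median of 0.04. Of the 5 end joining genes, 1 fell and 1 rose, with a median of −0.01. Among the 10 mismatch and excision repair genes, 3 fell and 3 rose, with a median of −0.20.

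Changes were small. Only Bard1 changed at least 2-fold, which is 2.13% of the set, against 6.86% of all tested genes that fell and 3.14% that rose by that much. Of the 24 genes called, 13 changed less than 1.5-fold. The inhibitor libraries all lay above the DMSO libraries for 7 genes and all below for 19. Among all tested genes such separation was seen in 60.6%, with 30.3% in each direction.

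**Figure D1:**
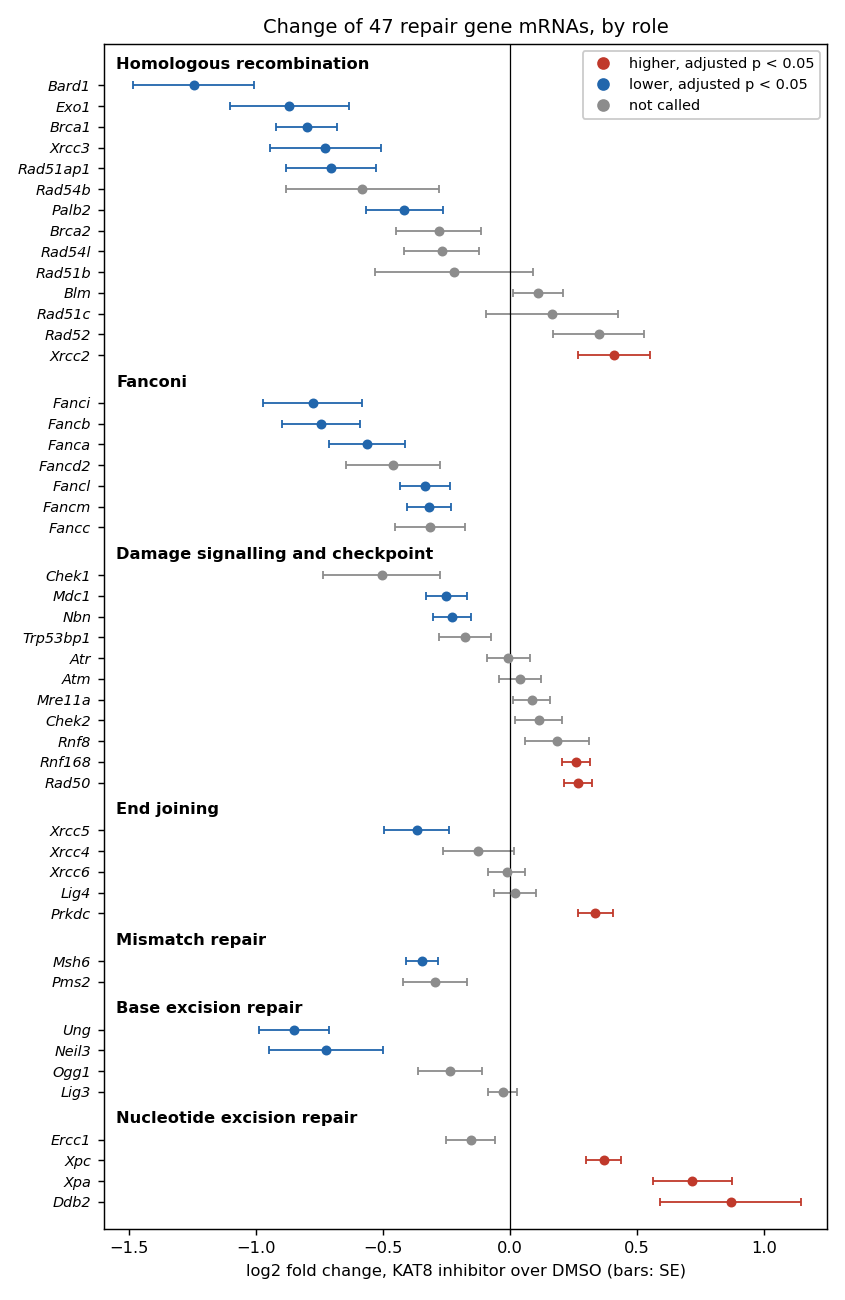
Log2 fold change of each of the 47 repair genes (inhibitor over DMSO, bars show the SE of the edgeR fit with 3 libraries a group), grouped by role. Red and blue points passed an adjusted p under 0.05 and grey points did not. Bard1 lies farthest to the left at −1.25 and Ddb2 farthest to the right at 0.87.

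The share of falls was above the background of all tested genes under 5 CPM, but not at 5 CPM or more. Of the 16 genes with a mean under 5 CPM over the 6 libraries, 9 fell and 1 rose (median −0.64). Of all tested genes at that level 20.9% fell and 16.1% rose. Of the 31 genes at 5 CPM or more, 8 fell and 6 rose (median −0.03), where 28.3% of all tested genes fell and 27.8% rose. A fall itself lowers that mean, and Exo1 and Ung were above 5 CPM with DMSO. By the DMSO level alone, 14 genes were under 5 CPM and 7 of them fell, out of 17 falls in all. The share of all tested genes under that DMSO level that fell was not computed.

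To compare genes, levels were divided by the kilobases of all annotated exons of a gene, which can exceed the length of its transcripts. On that scale recombination genes were the least abundant role. Their median DMSO level was 0.637 CPM per kb, from 0.124 for Rad51b to 1.35 for Rad52. The Fanconi median was 1.05, the end joining median 2.98 and the damage signalling median 3.23 CPM per kb. The most abundant single genes were Msh6 at 11.8 and Nbn at 11.4 CPM per kb. Brca1 was at 1.2, Brca2 at 0.444 and Bard1 at 0.526 CPM per kb.

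Brca1 and Bard1 encode the subunits of a ubiquitin ligase that starts recombination at breaks. Bard1 (ENSMUSG00000026196, chromosome 1, 71027498 to 71103146, minus strand) stood at 3.04, 3.02 and 2.88 CPM in the DMSO libraries and 1.46, 0.799 and 1.49 CPM in the inhibitor libraries, which are 55 to 70 and 20 to 38 reads. Every inhibitor library lay below every DMSO library, and inhibitor replicate 2 was the lowest. The gene fell 2.37-fold (log2 fold change −1.25, SE 0.24, adjusted p = 0.00282). Brca1 (ENSMUSG00000017146, chromosome 11, 101488764 to 101551955, minus strand) stood at 11.2, 10.5 and 8.98 CPM with DMSO and 5.59, 5.59 and 6.43 CPM with the inhibitor. Again the groups did not overlap, and the fall was 1.74-fold (−0.80, SE 0.12, adjusted p = 0.000794).

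The nuclease EXO1 widens single-stranded DNA at a break, and RAD51AP1 promotes strand invasion into the template. Exo1 levels were 5.97, 5.35 and 5.19 CPM with DMSO and 2.89, 4.12 and 1.99 CPM with the inhibitor. The inhibitor libraries were all lower but differed among themselves by more than the DMSO libraries did, and the gene fell by 0.87 on the log2 scale (SE 0.23, adjusted p = 0.0146). Rad51ap1 fell by 0.71 (SE 0.18, adjusted p = 0.0108), from 4.09, 4.01 and 3.23 CPM to 2.27, 1.96 and 2.70 CPM. The falls of Bard1, Brca1, Exo1 and Rad51ap1 were called in every setting at an adjusted p under 0.05 that tested them.

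Calls for 3 more recombination genes depended on single libraries. Palb2, which bridges BRCA1 and BRCA2, fell by 0.42 (SE 0.15, adjusted p = 0.0475), from 5.19, 4.70 and 4.06 CPM to 3.74, 3.64 and 3.03 CPM. It was not called when any of 5 libraries was left out, all but DMSO replicate 3 (adjusted p 0.0649 to 0.136), nor with library totals (0.12) or DESeq2 (0.123). The strand exchange cofactor Xrcc3 fell by 0.73 (adjusted p = 0.0234), from 1.82, 1.34 and 1.70 CPM to 1.00, 0.999 and 0.913 CPM, and was not called without any of 5 libraries, all but DMSO replicate 2 (0.0548 to 0.0693), nor by DESeq2 (0.107). Xrcc2, another such cofactor, was the single rise of the role, at 5.75, 4.23 and 5.10 CPM with DMSO and 6.55, 7.27 and 6.10 CPM with the inhibitor (log2 fold change 0.41, SE 0.14, adjusted p = 0.0415). It was not called without DMSO replicate 2 or 3 or inhibitor replicate 1 or 2 (0.0816 to 0.126), nor by DESeq2 (0.0843).

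The other 7 recombination genes did not pass. Brca2, a tumour suppressor gene central to recombination, stood at 7.40, 5.22 and 5.54 CPM with DMSO and 5.51, 4.28 and 5.06 CPM with the inhibitor (log2 fold change −0.28, SE 0.17, adjusted p = 0.194). Its groups overlapped, DMSO replicate 1 being the highest library. The helicase gene Blm (0.11) and the annealing factor Rad52 (0.35) had positive estimates, the motor proteins Rad54l (−0.27) and Rad54b (−0.58) negative ones, and Rad51b (−0.22) and Rad51c (0.17) lay near 1 CPM or under. Without DMSO replicate 1 Rad52 passed (log2 fold change 0.57, adjusted p = 0.011), and without DMSO replicate 3 Rad54b did (−0.82, adjusted p = 0.0466). Reads of Rad54b can be shared with Fsbp, which covers 35.8% of its exon bases on the same strand.

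All 7 Fanconi genes had negative estimates, from −0.78 to −0.31, and 5 of them passed. Fancb, a subunit of the core ubiquitin ligase complex (ENSMUSG00000047757, X chromosome, 164980592 to 164997272, plus strand), stood at 4.03, 3.24 and 3.45 CPM with DMSO and 2.04, 2.16 and 2.16 CPM with the inhibitor. The inhibitor libraries lay close together and below all DMSO libraries (−0.75, SE 0.15, adjusted p = 0.00408). Fanci, which with FANCD2 forms the clamp that the core complex ubiquitinates, stood at 3.87, 3.41 and 2.79 CPM with DMSO and 1.81, 1.72 and 2.32 CPM with the inhibitor (−0.78, SE 0.19, adjusted p = 0.0106). Fanca, another core subunit, fell by 0.56 (SE 0.15, adjusted p = 0.0137), from 7.90, 6.04 and 5.76 CPM to 4.43, 4.16 and 4.69 CPM. Exons of Fanca and Fanci overlap those of Zfp276 and Polg on the opposite strand (10.5% and 16% of their bases), and reads from the overlaps cannot be told apart without strand.

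Fancl, the catalytic subunit of the ligase, fell by 0.34 (SE 0.097, adjusted p = 0.0199), from 8.01, 8.85 and 8.03 CPM to 6.55, 6.75 and 6.43 CPM. The translocase gene Fancm fell by 0.32 (SE 0.086, adjusted p = 0.0145), from 12.9, 11.9 and 13.6 CPM to 10.2, 9.99 and 10.5 CPM. Groups of both genes were apart, but Fancl was not called without DMSO replicate 2, inhibitor replicate 1 or inhibitor replicate 3 (adjusted p 0.0598 to 0.0653), nor Fancm without inhibitor replicate 2 (0.0508). With library totals neither passed (adjusted p 0.0753 for Fancl and 0.0762 for Fancm), and by DESeq2 Fancl did not (0.0786). Fancd2 (−0.46, adjusted p = 0.0659) and Fancc (−0.31, adjusted p = 0.0907) did not pass. They passed without inhibitor replicate 2 (Fancd2, −0.64, adjusted p = 0.0227) and without DMSO replicate 3 (Fancc, −0.42, adjusted p = 0.0456).

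Damage signalling genes changed little. Rad50 and Rnf168 rose, Nbn and Mdc1 fell, and the other 7 did not pass. Rad50, the ATPase of the MRE11 complex that tethers broken ends (ENSMUSG00000020380, chromosome 11, 53649519 to 53707319, minus strand), stood at 39.6, 39.0 and 41.0 CPM with DMSO and 49.2, 46.2 and 48.6 CPM with the inhibitor. The groups were clearly apart (log2 fold change 0.27, SE 0.054, adjusted p = 0.00379). Rnf168, a ubiquitin ligase that marks histones at breaks, stood at 30.8, 29.7 and 29.7 CPM with DMSO and 35.8, 35.5 and 36.7 CPM with the inhibitor (0.26, SE 0.055, adjusted p = 0.00469). Both rises were 1.2-fold and were called in every setting at an adjusted p under 0.05.

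Nbn, the third subunit of the MRE11 complex, fell by 0.23 (SE 0.075, adjusted p = 0.0337), from 30.2, 29.2 and 27.6 CPM to 26.6, 24.6 and 23.0 CPM. The scaffold gene Mdc1 fell by 0.25 (SE 0.082, adjusted p = 0.0332), from 59.7, 48.6 and 50.6 CPM to 46.2, 44.6 and 42.6 CPM. Neither call was firm. Nbn was not called without DMSO replicate 1 or 2 or inhibitor replicate 2 or 3 (adjusted p 0.0702 to 0.107), and Mdc1 was not called without DMSO replicate 1 or any of the inhibitor libraries (0.0517 to 0.1). With library totals neither passed (0.219 for Nbn and 0.209 for Mdc1). The count of 2 falls in this class was accordingly 0 without DMSO replicate 1, inhibitor replicate 2 or inhibitor replicate 3, and 1 without inhibitor replicate 1.

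The apical kinases did not pass in edgeR's test as described. Atm was at 33.4 ± 3.60 CPM with DMSO and 34.2 ± 1.42 CPM with the inhibitor (SD, n = 3), a log2 fold change of 0.04 with an SE of 0.084. Atr was at 34.1 ± 3.76 and 34.0 ± 0.669 CPM, a log2 fold change of −0.01 with an SE of 0.083. The Atr estimate turned positive under other settings and passed with GC and length trends removed (0.18, adjusted p = 0.0303). Of the kinases they activate, Chek2 was at 9.07 ± 0.450 and 9.79 ± 0.455 CPM (0.11, adjusted p = 0.33). Chek1, which acts below ATR in S and G2 phase, was at 3.43, 2.67 and 4.36 CPM with DMSO and 1.93, 2.88 and 2.57 CPM with the inhibitor (−0.51, SE 0.23, adjusted p = 0.0979). Its groups overlapped, and it passed only without DMSO replicate 2 (−0.68, adjusted p = 0.0421). Mre11a (0.08), Rnf8 (0.19) and Trp53bp1 (−0.18) did not pass.

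End joining genes gave 1 rise and 1 fall. Prkdc, the catalytic subunit of the DNA-dependent protein kinase (ENSMUSG00000022672, chromosome 16, 15637866 to 15842235, plus strand), stood at 17.3, 16.9 and 16.4 CPM with DMSO and 20.3, 22.0 and 21.5 CPM with the inhibitor. The groups were apart, and the gene rose 1.26-fold (log2 fold change 0.34, SE 0.068, adjusted p = 0.00393). Xrcc5, which encodes Ku80, stood at 10.9, 8.37 and 8.64 CPM with DMSO and 7.59, 6.63 and 7.35 CPM with the inhibitor (−0.37, SE 0.13, adjusted p = 0.042). It was not called without any of 5 libraries, all but DMSO replicate 2 (adjusted p 0.0505 to 0.127), nor with library totals (0.139) or DESeq2 (0.0663). Its partner Xrcc6, encoding Ku70 (−0.01, but 0.10 with library totals), and the ligation pair Lig4 (0.02) and Xrcc4 (−0.12) did not pass.

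All 6 mismatch and base excision repair genes had negative estimates, except that Lig3 was above 0 with library totals, with GC and length trends removed and without inhibitor replicate 2. Of the 6, 3 passed. Msh6, for a protein that recognises mispaired bases (ENSMUSG00000005370, chromosome 17, 87975062 to 87990892, plus strand), stood at 53.7, 48.8 and 51.5 CPM with DMSO and 41.0, 38.1 and 42.0 CPM with the inhibitor. All inhibitor libraries were below all DMSO libraries (−0.35, SE 0.062, adjusted p = 0.00206). Pms2, of the complex that cuts the mispaired strand, did not pass (−0.30, adjusted p = 0.0819) except without DMSO replicate 1 (−0.38, adjusted p = 0.0442).

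Ung encodes the glycosylase that removes uracil from DNA (ENSMUSG00000029591, chromosome 5, 114130386 to 114139323, plus strand). Its levels were 6.08, 5.52 and 5.84 CPM with DMSO and 2.73, 3.48 and 3.44 CPM with the inhibitor. The gene fell 1.81-fold without overlap of the groups (−0.85, SE 0.14, adjusted p = 0.00118). Neil3, a glycosylase for oxidised bases that is expressed mainly in dividing cells, fell by 0.72 (SE 0.22, adjusted p = 0.0259), from 3.48, 3.24 and 3.88 CPM to 2.89, 1.76 and 1.74 CPM. It was not called without DMSO replicate 1 or 3 or inhibitor replicate 2 or 3 (adjusted p 0.0509 to 0.0815). Ogg1, the glycosylase for oxidised guanine (−0.24, adjusted p = 0.148), and Lig3 (−0.03, adjusted p = 0.697) did not pass.

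Nucleotide excision repair genes rose in 3 of 4 cases, and Ercc1, of the nuclease that cuts on the 5′ side of the damage, did not pass (−0.15, adjusted p = 0.213). Xpa, which checks that damage is present (ENSMUSG00000028329, chromosome 4, 46155347 to 46196311, minus strand), stood at 5.80, 9.15 and 6.98 CPM with DMSO and 12, 12.8 and 11.5 CPM with the inhibitor. DMSO libraries were more spread than inhibitor libraries but all lower, and the rise was 1.64-fold (0.72, SE 0.15, adjusted p = 0.00511). Xpc, the damage sensor of the pathway (ENSMUSG00000030094, chromosome 6, 91489305 to 91515888, minus strand), stood at 15.1, 16.1 and 16.4 CPM with DMSO and 20.6, 20.9 and 20.0 CPM with the inhibitor (0.37, SE 0.069, adjusted p = 0.00254). Both were called in every setting at an adjusted p under 0.05.

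Ddb2, which hands ultraviolet damage to XPC, had the largest estimate among the risers and one of the lowest levels. It stood at 2.04, 0.992 and 1.40 CPM with DMSO and 2.70, 2.12 and 3.15 CPM with the inhibitor (0.87, SE 0.28, adjusted p = 0.0297). The groups were apart, but the gene was not called without DMSO replicate 2 or 3 or inhibitor replicate 1 or 3 (adjusted p 0.0675 to 0.092), and 23.8% of its exon bases overlap Acp2 on the opposite strand. DDB2 and XPC are known as targets of the tumour suppressor p53 in human cells. In the same libraries 9 of 16 p53 targets rose and 4 fell (median 0.24), among them Cdkn1a, which encodes the cell cycle inhibitor p21, with a log2 fold change of 1.63. Their most abundant member, Plk2, stood at a mean of 839.5 CPM with DMSO. The part of p53 in the repair gene results was not tested.

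**Figure D2:**
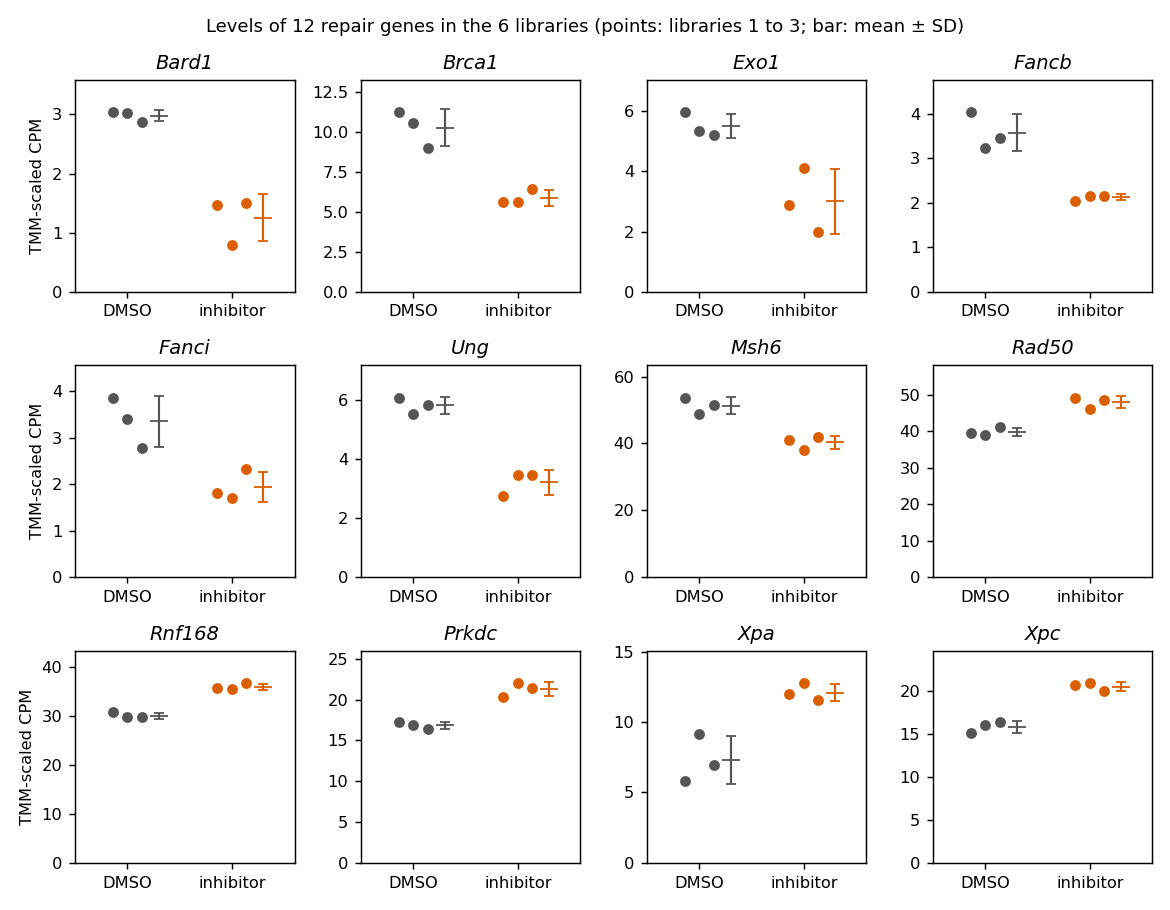
TMM-scaled CPM of 12 repair genes in each of the 6 libraries, with the mean and SD of each group beside the points. All 12 were picked from the called genes, whose groups did not overlap: Bard1 to Msh6 are lower with the inhibitor and Rad50 to Xpc are higher. Among all tested genes the groups were apart in 60.6%.

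Several of these genes encode subunits of shared complexes, and the count ratio of partners in a library needs no scaling. For 15 pairs, chosen after the values were seen, 9 ratios (60%) did not overlap between groups. Among all pairs of tested genes with reads in every library the share was 58.5%, so the count over partners is near the background and the ratios are given as a description. With 3 libraries against 3 the two-sided exact permutation test cannot go below p = 0.1, and over the pairs the smallest adjusted p was 0.167, so none passes. The Rad50 to Nbn ratio was 1.31, 1.33 and 1.49 in DMSO libraries and 1.85, 1.88 and 2.11 in inhibitor libraries (exact p = 0.1). The Prkdc to Xrcc5 ratio went from 1.58, 2.02 and 1.90 to 2.68, 3.32 and 2.92. In both of these pairs the first gene was higher relative to the second in every inhibitor library. The falls of Nbn and Xrcc5, the second genes, were not called in every setting.

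The Xrcc5 to Xrcc6 ratio, of the Ku subunits, was 0.635, 0.517 and 0.496 in DMSO libraries and 0.442, 0.386 and 0.460 in inhibitor libraries, all of them lower. The Bard1 to Brca1 ratio went from 0.271, 0.287 and 0.320 to 0.262, 0.143 and 0.232, so that inhibitor replicate 1 lay just below the DMSO range. In contrast, the Atm to Atr ratio was 0.978 ± 0.0358 with DMSO and 1.01 ± 0.0359 with the inhibitor (SD, n = 3), and its groups overlapped (exact p = 0.5).

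**Figure D3:**
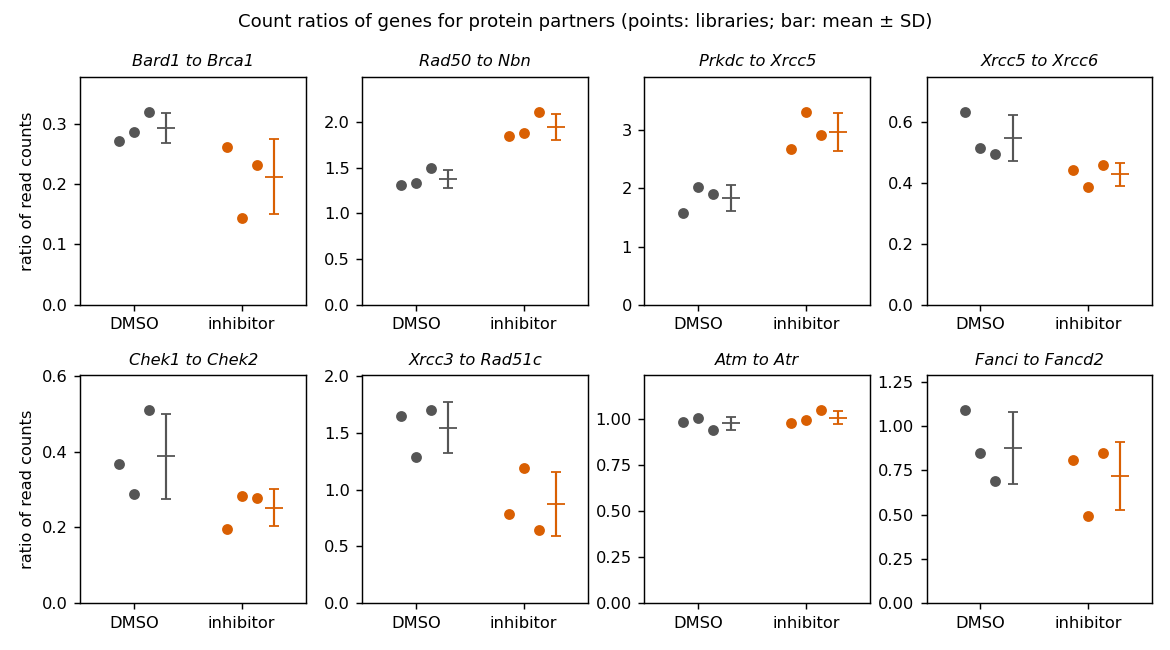
Ratios of read counts of genes whose products act together, in each of the 6 libraries, with the mean and SD of each group. The Rad50 to Nbn and Prkdc to Xrcc5 ratios are higher in all inhibitor libraries, the Xrcc5 to Xrcc6 ratio is lower in all, and the Atm to Atr and Fanci to Fancd2 ratios overlap.

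A wider list of 91 other repair genes, of which 90 could be tested, gave 22 that rose and 15 that fell (24.4% and 16.7%, median 0.01). Among all tested genes 24.9% rose and 26.5% fell. Recombination genes outside the set moved both ways, 4 rising and 3 falling of 16. Rad51d rose by 0.72 (SE 0.067, adjusted p = 5.68e-05), from 11.8 ± 0.0806 to 19.5 ± 0.127 CPM (SD, n = 3). Of 9 further Fanconi genes 2 rose and 1 fell. They were the DNA-binding partner Faap24 (0.59, with overlapping groups) and the nuclease Fan1 (0.32), and the deubiquitinase Usp1 (−0.38), which acts on the FANCD2 and FANCI clamp.

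Of 14 further signalling genes 4 rose and 4 fell. The S phase checkpoint genes Wee1 (−0.83), Timeless (−0.78) and Clspn (−0.77) fell with Topbp1 (−0.22), while the clamp subunits Rad9a (0.51) and Hus1 (0.50), their loader Rad17 (0.42) and the ATR activator Etaa1 (0.47) rose. Among 8 further end joining and PARP genes, Parp2 (0.24) rose and Parp1 (−0.26), the main sensor of strand nicks, fell. The mismatch repair gene Mlh3 (0.41) was the only one of 5 to pass. Of 15 further base excision genes 3 rose and 5 fell, with the largest fall in the replicative ligase Lig1 (−0.64) and the largest rise in the polymerase Polb (0.52). Of 13 further nucleotide excision genes 6 rose and 1, Ddb1 (−0.30), fell, and their median was 0.22. The largest rises there were those of the TFIIH subunit Gtf2h1 (0.60) and the nuclease Ercc5 (0.47).

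Proliferation genes fell in the same libraries: 12 of 12 for G2 and M phase (median −1.14) and 14 of 16 for S phase (median −0.55). Mki67, the proliferation marker, went from a mean of 226 to 81.8 CPM. Summed over each list, G2 and M phase mRNA was at 531, 474.6 and 500.1 CPM with DMSO and 220.7, 196.7 and 219.1 CPM with the inhibitor. The summed level of the 14 recombination genes was 73.2, 63.5 and 58.0 CPM with DMSO and 55.6, 54.0 and 54.5 CPM with the inhibitor, and that of the 7 Fanconi genes 49.6, 46.8 and 45.2 against 34.4, 34.2 and 36.8 CPM. Neither pair of groups overlapped. Relative to the DMSO mean, inhibitor libraries held 39.2% to 44.0% of G2 and M phase mRNA and 63.3% to 67.7% of S phase mRNA. Over the genes of the set, they held 72.6% to 77.9% for Fanconi and 83.2% to 85.7% for recombination. On the same scale the mismatch repair genes of the set, mostly Msh6, were at 73.8% to 82.9%. Its nucleotide excision repair genes were at 122.6% to 125.2%. Genes of the same roles outside the set were nearer the DMSO mean, at 98.2% to 101.2% for recombination and 95.5% to 98.6% for Fanconi. Those for mismatch repair were at 101.4% to 112.3% and those for nucleotide excision repair, mostly Ddb1, at 95.5% to 100.0%. Stromal marker mRNA was at 41.8% to 44.5% and macrophage marker mRNA at 60.3% to 61.0%. The part of proliferation in the repair gene results was not tested.

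**Figure D4:**
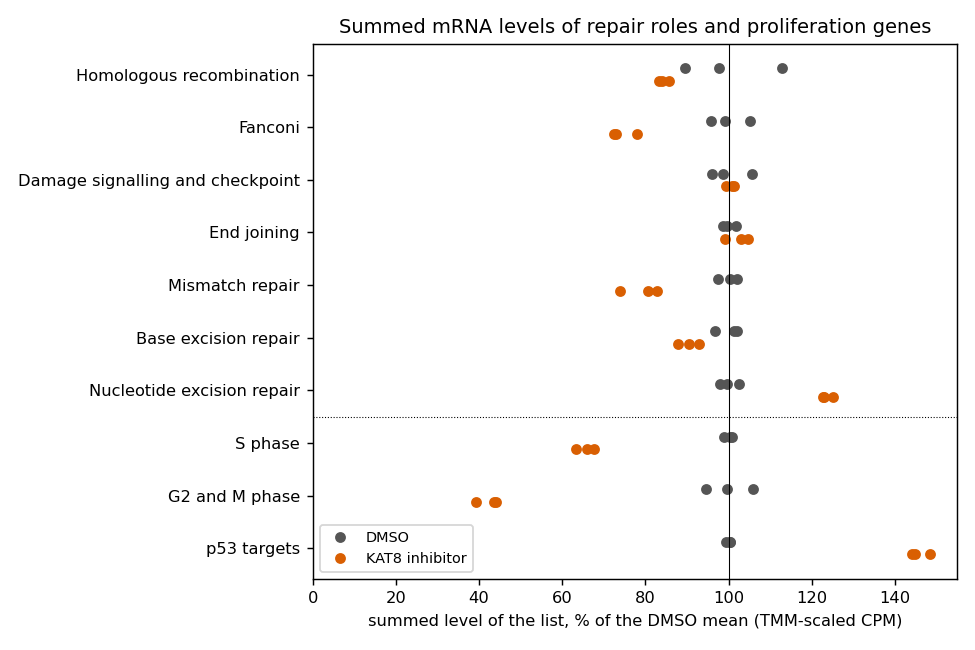
Summed level of the set's genes of each role in each library, as a percentage of the DMSO mean. S phase, G2 and M phase and p53 target genes are below the dotted line. Fanconi genes lie at 72.6% to 77.9% with the inhibitor and G2 and M phase genes at 39.2% to 44.0%, while damage signalling and end joining genes overlap the DMSO libraries.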

How the data were processed

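Per the file headers, the authors deposited a single table of unnormalized counts of reads, with Ensembl genes as rows and the 6 libraries as columns. HISAT2, StringTie 1.3.0, edgeR and the build mm10 are named in the submitters' processing notes. Their roles, the counter, and its handling of strand and of reads matching several places: not given in the sources used here. Exon bases of 22 of the 47 genes overlap another gene of the table.

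Symbols and coordinates are from GENCODE M21 (GRCm38, the same build), counted from 1; 478 genes without a symbol (0.143% to 0.199% of reads) stayed in totals and tests. Testing used edgeR 4.0.16 under R 4.3.3, by its quasi-likelihood test (TMM, filterByExpr with a minimum count of 10, pretreatment as the only factor, Benjamini-Hochberg over 13815 genes, threshold 0.05). Dividing the size of the log2 fold change by the root of F gave its SE. Levels are CPM of TMM-scaled library sizes. The procedure was tested on simulated data.

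The members and gene lists were chosen with earlier results of these data known. Full values go to the called genes of each role with the largest change (up to 6 in recombination, 4 in Fanconi and in signalling, 3 elsewhere, at a mean of at least 1 CPM) and those against the majority; other list genes named are the 2 largest called changes per list, and Clspn, Topbp1, Rad9a, Hus1, Rad17, Etaa1, Fan1, Ddb1, Cdkn1a, the further marker genes and the per-library values of Fancm were chosen after their values were seen. A few results covered by this rule are not reported here. No library was a copy of another: the chi-square per degree of freedom was 8.77 to 13.5 within groups and 80.3 to 96.5 between them. Alternatives were other scalings, filters, a block for the replicate number, DESeq2 1.42.0, removal of GC and length trends, a threshold of 0.01 and leaving out each library.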

Additional observations from a re-analysis of the deposited data

How the results depend on the processing

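Of the 24 repair genes called, 14 were called in every setting at an adjusted p under 0.05 that tested them, and 10 also at 0.01. The 17 falls became 11 with library totals, 8 among genes of at least 5 CPM (31 tested), 5 at an adjusted p under 0.01 and 10 to 16 with 1 library left out. The 7 rises were 5 to 8 in every setting. The median of −0.24 became −0.126 with library totals and −0.0336 at 5 CPM or more. Recombination and Fanconi falls (11) were 4 at 5 CPM or more (9 tested), 3 at 0.01 and 8 to 12 with 1 library left out. The single rise there was 0 with DESeq2, with the replicate block and at 0.01, and 0 to 2 with 1 library left out. The 2 signalling falls were 0 with library totals and at 0.01, 1 with DESeq2 and with GC and length trends removed, and 0 to 2 with 1 library left out. The end joining fall was 0 under those 4 settings and 0 to 1 with 1 library left out. The 3 mismatch and excision falls were 1 at 5 CPM or more. Over all genes the 3446 rises became 2257 at 0.01. Rises made up 48.4% of all calls, 63.2% with library totals and 56.2% with GC and length trends removed. Fewer genes tested or a stricter threshold lower counts by construction; otherwise the cause was not tested.

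Of 642 values of single repair genes under alternatives, 549 kept direction and call, 71 lost the call and 6 gained it without a change of sign. The other 16, of 5 genes not called, changed sign, and they include Atr with GC and length trends removed, which also gained a call. Atr (−0.01) was at 0.101 with library totals, 0.0033 without a filter and 0.177 with GC and length trends removed, where it passed, and from −0.0809 to 0.0739 with 1 library left out. Xrcc6 was at 0.0958 with library totals, 0.0344 with the trends removed, and −0.0495 to 0.0216 with 1 library left out. Lig3 was at 0.0801 and 0.0048 in the same settings, and −0.0679 to 0.0019 with 1 library left out. Leaving out 1 library put Atm between −0.0133 and 0.124 and Lig4 between −0.0312 and 0.0554.

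Labels number the replicates in both groups, but same-numbered libraries did not deviate together (r = −0.0337, −0.00297 and 0.0243), so the number is not taken as a pairing. With the replicate block 6 repair genes rose and 16 fell, Xrcc2 (adjusted p = 0.0744) and Xrcc3 (0.0511) being lost. Low counts limit the precision of single genes: 16 of the 47 were under 5 CPM.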

Other observations

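Among all repair genes examined, the largest change was that of Polk, which encodes a polymerase that copies past bulky adducts and sits outside the 47 genes. It stood at 18.3, 16.1 and 14.4 CPM in the DMSO libraries and 44.3, 43.4 and 40.9 CPM in the inhibitor libraries. The groups were far apart, and the gene rose 2.64-fold (log2 fold change 1.40, SE 0.091, adjusted p = 8.69e-06). It was the only one of 7 translesion genes to pass. The other 6 ranged from −0.32 (Rad18) to 0.13 (Poli), with the polymerases Polh and Rev1 near 0 (both −0.01 or closer). Of the 3 genes for direct reversal of alkylation damage, Mgmt (−0.17), Alkbh2 (0.37) and Alkbh3 (0.13), none passed in edgeR's test.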
